A study of Homo sapiens with 5 samples.

Results

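HAP1 is a near-haploid human cell line derived from KBM-7, a line from a chronic myeloid leukaemia, and grows attached to the dish. The 6 genes described are GATA2, TAL1, KIT, CORO1A, BCR and ABL1, which recall that origin. They were picked by name, out of 14042 gene symbols in the count table, with their values in this comparison already known. All 6 were found, 1 row each, and all 6 were among the 11335 rows with enough counts to test.

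Ribosome footprints, the short pieces of mRNA that a ribosome shields from nuclease, were counted in 3 libraries of METTL18 knockout HAP1 cells and 2 libraries of wild-type HAP1 cells. The enzyme METTL18 methylates a histidine in the ribosomal protein RPL3. Both groups were lysed with cycloheximide, a drug that holds ribosomes on mRNA, and the labels name no other treatment. The sources used here do not say how the knockout was made, whether it is 1 clone, or whether libraries of a group came from separate cultures. The p-values therefore reflect the scatter among these 5 libraries alone, and that scatter may be technical.

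GATA2 and TAL1 are transcription factors that blood stem and progenitor cells need, and they often sit together on DNA with LMO2 and LDB1. KIT is the receptor for stem cell factor on the same cells, and CORO1A is an actin-binding coronin made mostly by leukocytes. The Philadelphia translocation of chronic myeloid leukaemia joins the start of BCR to most of ABL1 and yields a kinase that is always on, and HAP1 inherited this fusion.

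The place where the 2 genes are joined shows what their counts can hold. The usual junctions join exon 13 or exon 14 of BCR to exon 2 of ABL1, and the sources used here do not say which of them HAP1 carries. The lines below give the 24 reference bases on each side, 5′ to 3′ on the plus strand of hg38, from the GENCODE 29 transcripts. Capitals mark the 3 bases at the exon edge.
BCR exon 13, last bases, chr22:23289598-23289621: ttccgctgaccatcaataaggAAG
BCR exon 14, last bases, chr22:23290390-23290413: ccactggatttaagcagagttCAA
ABL1 exon 2, first bases, chr9:130854064-130854087: AAGcccttcagcggccagtagcat
Up to the end of exon 13 lie 71% of the coding bases of BCR (2707 bases), and up to the end of exon 14 lie 73% (2782 bases). From the start of exon 2 lie 96.1% of the coding bases of ABL1 (3311 bases). The table has 1 total per transcript, so reads of the fusion and reads of unfused BCR or ABL1 cannot be told apart in it.

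The knockout libraries held 16339574 to 17629199 counts and the wild-type libraries 4887380 to 5302160, a mean depth 3.33-fold higher in the knockout. Levels below are CPM, counts scaled to a common library size, with TMM factors, which take most genes as unchanged. METTL18 itself averaged 2.10 ± 0.117 CPM in knockout cells and 5.71 ± 0.211 CPM in wild-type cells (SD, n = 3 and 2). By edgeR's quasi-likelihood test, with p-values adjusted after Benjamini and Hochberg, its log2 fold change was -1.44 with an SE of 0.247 (adjusted p = 2e-06). It was thus lower in the knockout and not at 0. The groups differed over much of the table: 74.4% of the genes tested passed an adjusted p of 0.05 in that test, 37.8% higher in the knockout and 36.6% lower. No matched mRNA data were used, so a change in footprints cannot be told apart into a change in mRNA and a change in ribosomes per mRNA. Fewer cells of one kind and less RNA per cell cannot be told apart either.

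Of the 6 genes, GATA2, CORO1A and ABL1 were higher in the knockout, TAL1 and KIT were lower, and BCR did not pass the threshold. In all 6 the knockout libraries lay wholly above or wholly below the wild-type libraries, which held for 83.5% of all genes tested. Because the choice of genes used this comparison, their fold changes are given as a description, with no p. Whether a gene passed the threshold serves only to count it, and nothing is read from the count of 5 of 6 beside the 74.4% of all genes. Their median log2 fold change was 0.82, against 0.016 over all genes tested, and nothing is read from that median either. The 6 values ran both ways, from -2.13 in TAL1 to 2.06 in ABL1.

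**Figure D1:**
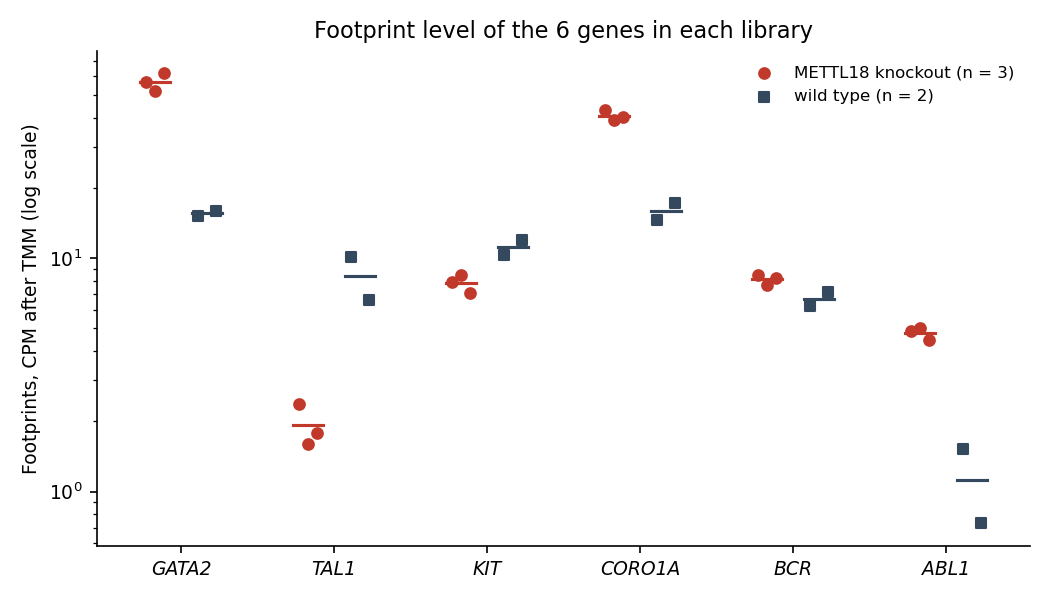
Footprint level of the 6 genes in each library, in CPM after TMM on a log scale. For each gene the 3 METTL18 knockout libraries stand left of the 2 wild-type libraries, with bars for the group means; GATA2, CORO1A, ABL1 and BCR lie higher in every knockout library, TAL1 and KIT lower.

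GATA2 encodes a zinc-finger factor that keeps blood stem and progenitor cells going and also acts in endothelium. Its transcript in the table (ENST00000341105) runs on the minus strand of chromosome 3 from 128479427 to 128493185 (hg38) in 6 exons, 5 of them coding. GATA2 had 859, 843 and 976 counts in the knockout libraries and 90 and 87 counts in the wild-type libraries. These are 56.7, 51.8 and 61.9 CPM in the knockout and 15.2 and 15.9 CPM in the wild type. Every knockout library was well above both wild-type libraries, and the wild-type pair nearly coincided. The knockout mean was 56.8 ± 5.07 CPM and the wild-type mean 15.5 ± 0.539 CPM (SD, n = 3 and 2), a log2 fold change of 1.87 (SE 0.108). From the summed counts, scaled for depth, the ratio was 3.66, with an exact 95% counting interval of 3.14 to 4.28. Among all genes tested, that fold change stood at percentile 95.1.

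TAL1 encodes a basic helix-loop-helix factor at the head of blood formation, first found at a translocation in T-cell leukaemia. Its transcript (ENST00000371884) lies on the minus strand of chromosome 1 from 47216290 to 47231715, with 5 exons of which 3 are coding. TAL1 had 36, 26 and 28 counts in the knockout libraries and 60 and 36 counts in the wild-type libraries. Scaled for depth these are 2.38, 1.60 and 1.78 CPM in the knockout and 10.1 and 6.59 CPM in the wild type. The groups did not overlap on the CPM scale, and the wild-type pair was spread more widely than in GATA2. TAL1 averaged 1.92 ± 0.408 CPM in knockout cells and 8.34 ± 2.49 CPM in wild-type cells (SD, n = 3 and 2), a log2 fold change of -2.13 (SE 0.240). The count ratio was 0.227 (95% interval 0.168 to 0.305), and the fold change stood at percentile 4.63 of all genes tested.

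GATA2 and TAL1, which often act on the same sites, thus moved in opposite directions. Within a library, and per kilobase of coding sequence, GATA2 was 16.5, 22.4 and 24 times TAL1 in the knockout and 1.03 and 1.67 times TAL1 in the wild type. That ratio does not depend on how libraries are scaled to each other. In mouse blood progenitors both factors act on their own and each other's genes, so the 250 bases before each RefSeq start were searched for GATA motifs (AGATAA and its variant AGATAG, or TGATAA and its variant TGATAG) and for the E-box CAGNTG that TAL1 dimers bind, on both strands. Bases are given 5′ to 3′ on the minus strand of GRCh38.p14, from RefSeq, with a match in capitals.
TAL1 promoter, chr1:47232336-47232585: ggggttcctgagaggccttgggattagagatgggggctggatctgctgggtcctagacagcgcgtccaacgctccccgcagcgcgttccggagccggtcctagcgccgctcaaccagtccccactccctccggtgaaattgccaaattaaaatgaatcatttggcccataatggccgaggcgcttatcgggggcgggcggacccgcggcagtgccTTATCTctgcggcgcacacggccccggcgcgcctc
GATA2 promoter, chr3:128493202-128493451: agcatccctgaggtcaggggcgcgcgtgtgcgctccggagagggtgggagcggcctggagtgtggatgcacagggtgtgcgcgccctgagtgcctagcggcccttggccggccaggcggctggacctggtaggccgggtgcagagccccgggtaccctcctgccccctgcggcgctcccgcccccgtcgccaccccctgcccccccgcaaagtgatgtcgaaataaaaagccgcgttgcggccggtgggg
The TAL1 window held 1 GATA match, TTATCT, which is AGATAA read on the other strand and begins 35 bases before the start. The GATA2 window held none, and neither window held the E-box, which says only that these letters are not there. Bases outside the 2 windows were not searched. The TAL1 window ends at 47232336 and does not adjoin the counted TAL1 transcript, which starts at 47231715. Whether the match bears on the TAL1 values was not tested. GATA motifs were found in 6254 of 27305 RefSeq promoters (22.9%) and the E-box in 11600 (42.5%). Both windows were rich in G and C, at 64.8% in TAL1 and 72.8% in GATA2, with 24 CpG pairs each, against medians of 58% and 11 CpG pairs over all RefSeq promoters.

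KIT encodes the tyrosine kinase receptor for stem cell factor. Its transcript (ENST00000288135) lies on the plus strand of chromosome 4 from 54657918 to 54740715 in 21 coding exons. KIT had 119, 138 and 112 counts in the knockout libraries and 61 and 65 counts in the wild-type libraries. Scaled, these were 7.86, 8.48 and 7.11 CPM in the knockout and 10.3 and 11.9 CPM in the wild type. The groups did not overlap, but the gap between them was narrower than in TAL1. KIT averaged 7.81 ± 0.687 CPM in knockout cells and 11.1 ± 1.15 CPM in wild-type cells (SD, n = 3 and 2), a log2 fold change of -0.50 (SE 0.161) and a count ratio of 0.708 (95% interval 0.577 to 0.874). The fold change was -0.40, and KIT no longer passed the threshold, without wild-type replicate 2.

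CORO1A encodes coronin 1A, which binds actin filaments and the actin-branching Arp2/3 complex in leukocytes. Its transcript (ENST00000219150) lies on the plus strand of chromosome 16 from 30183422 to 30189076, with 11 exons of which 10 are coding. CORO1A had 653, 637 and 633 counts in the knockout libraries and 87 and 94 counts in the wild-type libraries. This gave 43.1, 39.1 and 40.2 CPM in the knockout and 14.6 and 17.2 CPM in the wild type. The 3 knockout libraries were close together and far above both wild-type libraries. CORO1A averaged 40.8 ± 2.07 CPM in knockout cells and 15.9 ± 1.80 CPM in wild-type cells (SD, n = 3 and 2), a log2 fold change of 1.36 (SE 0.108) and a count ratio of 2.57 (95% interval 2.2 to 3.01). Of its 28-base windows, 8.78% also occur in AC133555.4, and the sources used here do not say how the authors counted reads that match both.

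BCR encodes a signalling protein with exchange-factor and GTPase-activating domains. Its transcript (ENST00000305877) lies on the plus strand of chromosome 22 from 23180210 to 23318037 in 23 coding exons. BCR had 128, 125 and 129 counts in the knockout libraries and 37 and 39 counts in the wild-type libraries. These are 8.45, 7.68 and 8.18 CPM in the knockout and 6.23 and 7.13 CPM in the wild type. The knockout libraries were all slightly above the wild-type libraries, and the gap was smaller than the spread within the wild-type pair. BCR averaged 8.11 ± 0.392 CPM in knockout cells and 6.68 ± 0.640 CPM in wild-type cells (SD, n = 3 and 2), a log2 fold change of 0.28 (SE 0.181). The count ratio was 1.21, and its 95% interval of 0.948 to 1.58 holds 1. Of the 28-base windows of BCR, 86.8% occur nowhere else among GENCODE transcripts, while AP000356.3 shares 10.1% and the pseudogene BCRP3 shares 9.67%, so its level carries that uncertainty.

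ABL1 encodes a tyrosine kinase without a membrane part, which controls the cytoskeleton and the response to DNA damage. Its transcript in the table (ENST00000372348) lies on the plus strand of chromosome 9 from 130713946 to 130885683 in 11 coding exons. ABL1 had 74, 82 and 70 counts in the knockout libraries and 9 and 4 counts in the wild-type libraries. Scaled, these were 4.89, 5.04 and 4.44 CPM in the knockout and 1.52 and 0.732 CPM in the wild type. The knockout libraries were close together and well above the wild-type pair, whose own values differed widely on very few counts. ABL1 averaged 4.79 ± 0.310 CPM in knockout cells and 1.12 ± 0.554 CPM in wild-type cells (SD, n = 3 and 2), a log2 fold change of 2.06 (SE 0.337). With 13 wild-type counts in all, the count ratio of 4.20 had a 95% interval of 2.41 to 8.01. The fitted fold was 4.17, and it was 6.45 without wild-type replicate 1 and 3.14 without wild-type replicate 2.

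BCR and ABL1, the partners of the fusion, did not keep 1 ratio. Per kilobase of coding sequence, ABL1 was 0.640, 0.726 and 0.600 times BCR in the knockout libraries and 0.269 and 0.113 times BCR in the wild-type libraries. In every library ABL1 was below BCR, and the ratio was higher in each knockout library than in either wild-type library. The wild-type ratios rest on the 9 and 4 counts of ABL1.

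**Figure D2:**
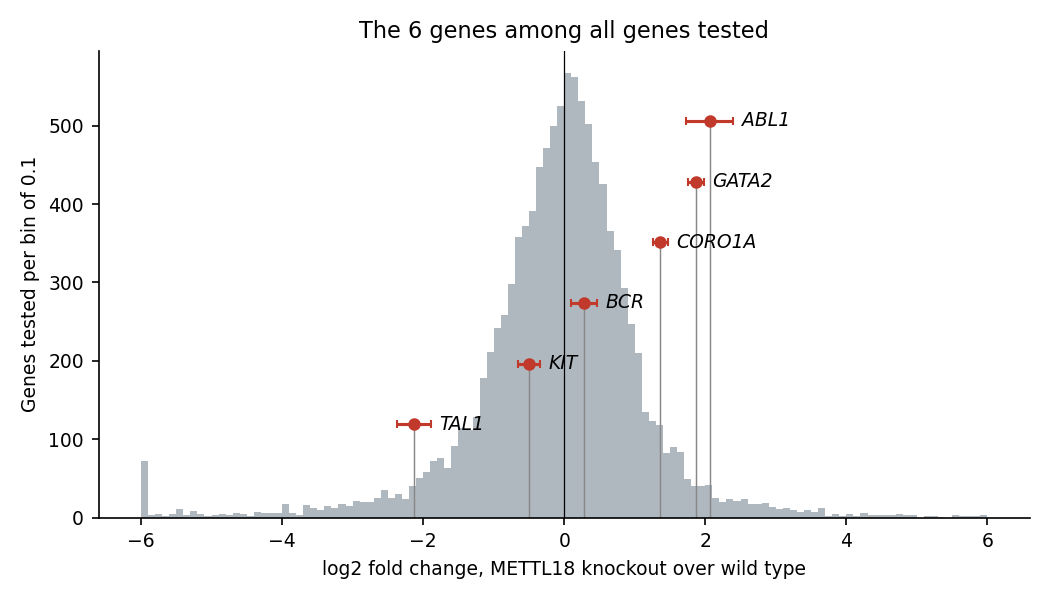
Distribution of the log2 fold change of METTL18 knockout over wild type for the 11335 genes tested, with the 6 genes marked. ABL1 (2.06) and GATA2 (1.87) lie far in the upper tail, TAL1 (-2.13) far in the lower tail, and BCR (0.28) and KIT (-0.50) nearer the centre; the end bins hold all genes beyond the axis.

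Levels of different genes can be set side by side only per length, so CPM was divided by coding length in kilobases. In the knockout the order was GATA2 (39.5 ± 3.52), CORO1A (29.5 ± 1.5), KIT (2.67 ± 0.235), BCR (2.13 ± 0.103), TAL1 (1.93 ± 0.411) and ABL1 (1.39 ± 0.0900 CPM per kilobase, SD, n = 3 each). BCR and TAL1 overlapped in their libraries, at 2.22, 2.01 and 2.15 for BCR and 2.39, 1.61 and 1.79 for TAL1, and the other neighbours did not. In the wild type the order was CORO1A (11.5 ± 1.3), GATA2 (10.8 ± 0.374), TAL1 (8.40 ± 2.50), KIT (3.78 ± 0.391), BCR (1.75 ± 0.168) and ABL1 (0.326 ± 0.161 CPM per kilobase, SD, n = 2 each). There CORO1A and GATA2 overlapped in their libraries, and the SD of TAL1 reached past the level of GATA2. The highest of the 6 was 28.4 times the lowest in the knockout and 35.3 times in the wild type.

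Set among the 11284 genes tested that had a coding length, the 6 ran from low to moderately high. The median gene stood at 14.4 CPM per kilobase in the knockout and 14.8 in the wild type. GATA2 stood at percentile 70.1 in the knockout and 42.6 in the wild type, and CORO1A at 64.4 and 44.0 in the same order, so both crossed the median. TAL1 stood at percentile 15.7 in the knockout and 37.3 in the wild type. KIT, BCR and ABL1 were low in both groups, at percentiles 19.8, 16.9 and 12.3 in the knockout and 23.3, 13.7 and 3.30 in the wild type.

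**Figure D3:**
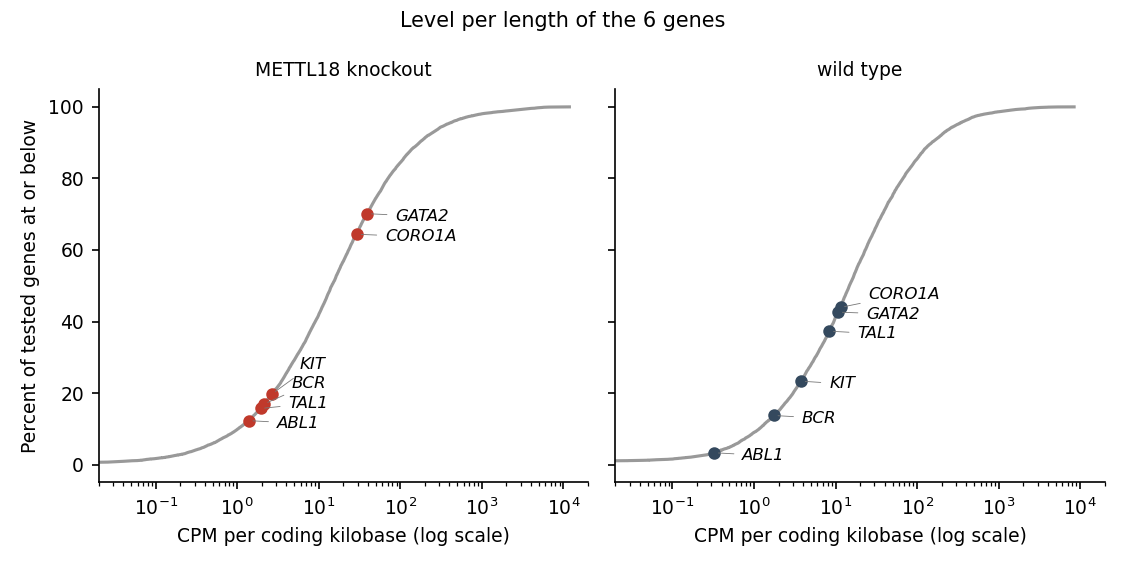
Cumulative percent of tested genes by CPM per coding kilobase (log scale) in METTL18 knockout (left) and wild type (right), with the 6 genes marked at their level. GATA2 and CORO1A stand above the median gene in the knockout and below it in the wild type, while KIT, BCR and ABL1 stay low in both.

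Other factors and cofactors that specify blood cells moved both ways, and some had no row or next to no count. Of 51 listed, not counting GATA2 and TAL1, 41 had a row and 34 were tested. Of these, 8 were higher in the knockout, 14 were lower and 12 did not pass. The share called was 64.7%, beside 74.4% of all genes tested, with a median log2 fold change of -0.08. Of the 34, 3 reached 1 CPM only in the wild type and 1 only in the knockout, so they passed the filter through that group. Nothing is read from the count or median. With total-count scaling the split was 6 higher and 20 lower. Among the 10 with no row were GATA1, RUNX1, SPI1 and MYB. KLF1 had no count in either group, and IKZF1 had 1 count, in the wild type. RCOR1, a corepressor that works with the demethylase KDM1A, averaged 118 ± 1.70 CPM in the knockout and 55.6 ± 1.53 CPM in the wild type (log2 fold change 1.08, adjusted p = 2.4e-18, edgeR). KDM1A was at 580 ± 19.0 CPM in the knockout and 424 ± 7.85 CPM in the wild type (0.45, adjusted p = 1.92e-12, edgeR), and the ETS factor ELF1 was also higher (1.04). CEBPB and CEBPG, leucine-zipper factors of myeloid cells and of stress, were both lower, at log2 fold changes of -2.13 and -1.86. CEBPG was at 39.6 ± 4.09 CPM in the knockout and 144 ± 9.57 CPM in the wild type. FLI1, an ETS factor of blood and endothelium, had no count in the knockout and 25 counts in the wild type, so it was at least 34.5-fold lower (floor of 3 counts over the group).

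The proteins that bind DNA together with TAL1, and its close relatives, had differing values. They were singled out after those values were seen. TCF12, one of its helix-loop-helix partners, was lower in the knockout, at 74.2 ± 0.550 CPM against 137 ± 0.0334 CPM in the wild type (log2 fold change -0.88, adjusted p = 1.68e-17, edgeR). LDB1, the bridge of the complex, was lower too, at 17.9 ± 0.306 CPM in the knockout and 23.9 ± 2.81 CPM in the wild type (-0.42, adjusted p = 0.000799, edgeR). TCF3, another partner, was at 79.7 ± 2.36 CPM in the knockout and 73.7 ± 5.72 CPM in the wild type and did not pass. LMO2 had 11 counts in the knockout and 4 in the wild type, or 0.232 and 0.344 CPM once scaled for depth. LYL1, the nearest relative of TAL1, had 15 and 3 counts in the same order, or 0.315 and 0.267 CPM. Both had too few counts to test. GATA3 was at 3.06 ± 0.865 CPM in the knockout and 1.83 ± 0.264 CPM in the wild type and did not pass (adjusted p = 0.0523, edgeR).

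Receptors, ligands and kinases of KIT and of blood cytokines moved both ways. Of 44 listed, not counting KIT, 38 had a row and 33 were tested. Of these, 10 were higher in the knockout, 15 were lower and 8 did not pass. The share called was 75.8%, beside 74.4% of all genes tested, with a median of -0.32. Of the 33, 3 reached 1 CPM only in the knockout and 2 only in the wild type, so they passed the filter through that group. Nothing is read from the count or median. With total-count scaling 6 were higher and 17 lower. KITLG, the ligand of KIT, averaged 10.5 ± 0.549 CPM in the knockout and 19.2 ± 1.87 CPM in the wild type (log2 fold change -0.87, adjusted p = 1.15e-07, edgeR). KIT was lower too, but it was chosen with its value known, and its call was lost without wild-type replicate 2. A link between the receptor and its ligand was not tested. JAK1, a kinase of cytokine receptors, was at 45.4 ± 1.97 CPM in the knockout and 106 ± 2.07 CPM in the wild type (-1.23). The tyrosine kinase FYN (-1.95) was lower and LYN (0.38) was higher. STAT5B, which cytokine receptors and BCR-ABL1 switch on, was lower, at 32.6 ± 2.33 CPM in the knockout and 64.4 ± 0.0648 CPM in the wild type (-0.98, adjusted p = 1.57e-14, edgeR). SOCS2, a feedback inhibitor of that pathway, was higher, at 11.7 ± 0.522 CPM in the knockout and 3.00 ± 0.672 CPM in the wild type (1.97, adjusted p = 4.97e-11, edgeR). STAT3 was higher as well, at 215 ± 5.86 CPM in the knockout and 136 ± 3.90 CPM in the wild type.

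Adaptors and effectors of BCR-ABL1 were well represented, with 43 of 47 in the table and all 43 tested. Of these, 15 were higher in the knockout, 14 were lower and 14 did not pass. The share called was 67.4%, beside 74.4% of all genes tested, with a median of -0.05. With total-count scaling the split was 9 higher and 26 lower, so no direction is given for the list. CRKL, an adaptor that the fusion kinase phosphorylates, averaged 109 ± 4.07 CPM in the knockout and 54.5 ± 0.590 CPM in the wild type (log2 fold change 1.00, adjusted p = 9.17e-17, edgeR). The related adaptor NCK1 was higher (1.27), and GRB2, which links the fusion to RAS, was at 109 ± 1.87 CPM in the knockout and 85.8 ± 0.299 CPM in the wild type (0.34). SOS2 (-1.98), the actin regulator WASF1 (-1.08) and MAP2K2 (-0.74) were lower. BCL2L1, a survival gene, was higher at 15.4 ± 1.54 CPM in the knockout and 4.62 ± 1.09 CPM in the wild type (1.73, adjusted p = 4.6e-11, edgeR). PPP2R1A, the scaffold of a phosphatase, and SET, an inhibitor of that phosphatase, were both higher (0.96 and 0.35). The nearest relatives of the fusion partners were ABL2 and ABR. ABL2 was at 24.4 ± 1.25 CPM in the knockout and 31.8 ± 1.62 CPM in the wild type (-0.38, adjusted p = 0.000639, edgeR), opposite in sign to ABL1. ABR, related to BCR, had 36 counts in the knockout and 11 in the wild type, or 0.768 ± 0.436 and 0.970 ± 0.181 CPM, and did not pass.

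Coronins other than CORO1A and the Arp2/3 complex had 15 of 20 members in the table, all tested. Of these, 6 were higher in the knockout, 3 were lower and 6 did not pass. The share called was 60.0%, beside 74.4% of all genes tested, with a median of 0.11. With total-count scaling 5 were higher and 6 lower. CORO1B was at 62.7 ± 4.59 CPM in the knockout and 58.0 ± 1.54 CPM in the wild type and did not pass, nor did CORO2A (0.10) or CORO7 (0.34). CORO1C was lower at 156 ± 6.83 CPM in the knockout and 174 ± 2.52 CPM in the wild type (-0.16, adjusted p = 0.00592, edgeR). Of the Arp2/3 subunits, ARPC2 (0.57), ARPC5 (0.72) and ARPC1B (0.76) were higher, ACTR2 (-0.18) and ACTR3 (-0.11) were lower, and ARPC3 (-0.01) did not pass. These log2 fold changes were smaller in size than the 1.36 of CORO1A. CORO1A was chosen with that value known, and it stood at percentile 91.8 of all genes tested, so nothing is read from this.

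**Figure D4:**
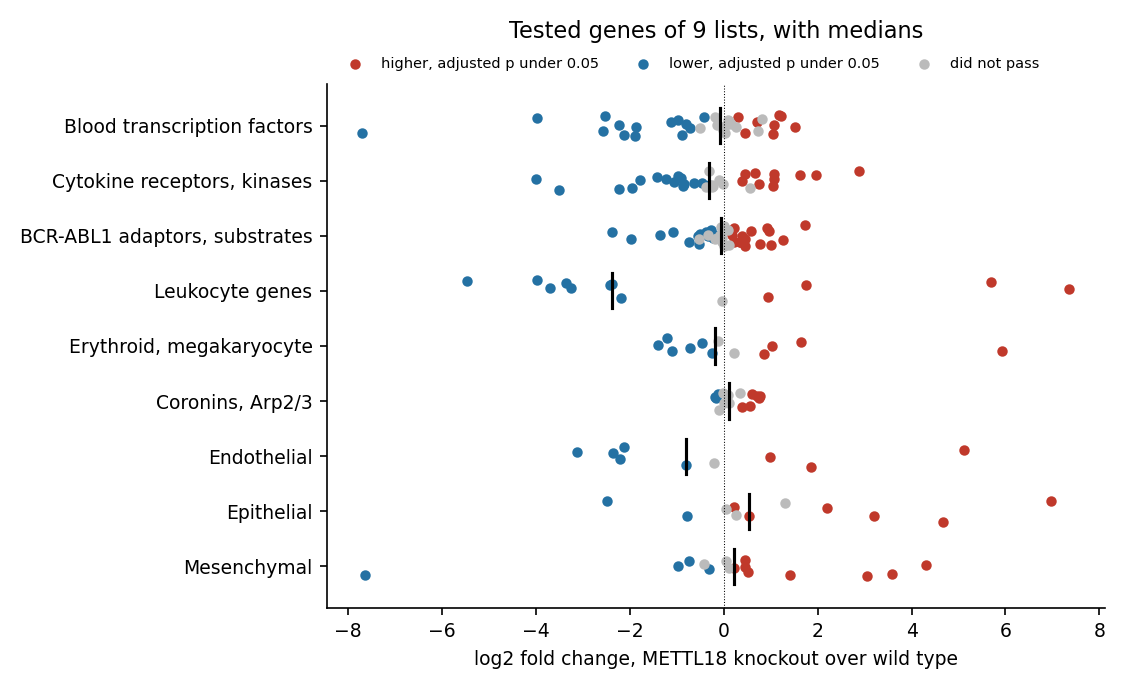
Log2 fold change of METTL18 knockout over wild type for each tested gene of 9 gene lists, coloured by whether it was higher, lower or did not pass, with the list median as a bar. Genes with no count in 1 group, such as FLI1 and MYO1F, are drawn at their fitted value, which is no bound. The leukocyte median (-2.37, over 13 genes) carries no support, since 6 of the 13 reached 1 CPM only in the wild type and 2 only in the knockout.

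Markers of leukocytes were sparse in both groups. Of 56 listed, not counting CORO1A, 35 had a row and 13 were tested, and 22 had too few counts. SPN, a sialoglycoprotein of leukocyte membranes, had 0, 4 and 2 counts in the knockout libraries and none in the wild-type libraries. LAPTM5, a lysosomal protein of blood cells, had none in the knockout libraries and 4 and 0 counts in the wild-type libraries. The other defining markers chosen, PTPRC and LCP1, had no row. The stem-cell marker CD34 had no count in the knockout and 4 in the wild type, and the myeloid marker CD33 had none in either. CORO1A, itself a leukocyte marker, was thus present at the levels above while SPN, LAPTM5, CD34 and CD33 were at or near 0. No level can be given for PTPRC and LCP1, since a missing row is not a count of 0. Other genes of the list, described next, were well above 0 in 1 or both groups. The 6 genes are grouped by where the line came from.

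Of the 13 leukocyte genes tested, 4 were higher in the knockout, 8 were lower and 1 did not pass, with a median of -2.37. Of these 13, 6 reached 1 CPM only in the wild type and 2 only in the knockout, so they passed the filter through the group where they were high, and the count and median carry no support. The summed level of the list was 129 to 139 CPM in the knockout and 181 to 187 CPM in the wild type. Without ITGA4 its direction turned, at 113 to 121 CPM in the knockout and 91.7 to 98.5 CPM in the wild type. ITGAL, an integrin of leukocytes that pairs with ITGB2, had 884 counts in the knockout and 4 in the wild type, or 18.7 ± 0.953 CPM in the knockout and 0.344 ± 0.228 CPM in the wild type (log2 fold change 5.70, adjusted p = 6.39e-20, edgeR). ITGA4, an integrin of lymphoid and progenitor cells, went the other way, at 16.6 ± 1.44 CPM in the knockout and 88.7 ± 0.363 CPM in the wild type (-2.42, adjusted p = 2.15e-27, edgeR). CYBA (0.95), a subunit of the phagocyte oxidase, and CD38 (1.76) were higher, WIPF1 (-2.19) and DOCK8 (-3.98) were lower, and SYK (-0.03) did not pass. MYO1F, a myosin of immune cells, had 82 counts in the knockout and none in the wild type, at least 6.61-fold higher.

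Genes of erythroid cells and megakaryocytes, the lineages in which GATA factors and TAL1 are best known, had 20 of 47 in the table and 12 tested. Of these, 4 were higher in the knockout, 6 were lower and 2 did not pass. The share called was 83.3%, beside 74.4% of all genes tested, with a median of -0.17. Of the 12, 1 reached 1 CPM only in the knockout, and nothing is read from the count. The summed level was 1426 to 1434 CPM in the knockout and 1148 to 1176 CPM in the wild type, the largest part of it from the transferrin receptor TFRC, which dividing cells in general make. TFRC averaged 972 ± 10.6 CPM in the knockout and 538 ± 3.87 CPM in the wild type (0.85). Without it the sum was lower in the knockout, at 450 to 462 CPM, than in the wild type, at 614 to 636 CPM. CA2 (1.65), a carbonic anhydrase, was higher, and the red-cell membrane genes EPB41 (-1.09) and GYPC (-1.21) were lower. TUBB1, a tubulin of platelets, had 282 counts in the knockout and 1 in the wild type, a ratio of 68.2 with a 95% counting interval of 12.1 to 2702.

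GATA2 and TAL1 also count as endothelial genes, and that list of 26, with them in it, had 15 in the table and 9 tested, of which 3 were higher in the knockout, 5 were lower and 1 did not pass. Of the other 7 tested, without GATA2 and TAL1, 2 were higher, 4 were lower and 1 did not pass, with a median of -0.81. Over all genes tested, 37.8% were higher and 36.6% were lower. Of the 9, 1 reached 1 CPM only in the knockout, and nothing is read from these counts. The receptors FLT1 and FLT4 for vascular growth factors were lower, at 3.72 ± 0.501 CPM and 10.6 ± 0.960 CPM in the knockout against 32.6 ± 2.28 CPM and 49.1 ± 1.34 CPM in the wild type. ESAM (0.99) was higher, and NOS3 had 160 counts in the knockout and 1 in the wild type, a ratio of 38.7 (95% interval 6.84 to 1537). Without GATA2 and TAL1, the summed endothelial level was 34.3 to 36.5 CPM in the knockout and 102 to 106 CPM in the wild type. FLT1 and FLT4 made up most of that wild-type sum, so the difference between the groups rests largely on them. With GATA2 and TAL1 the sum was 89.5 to 98.0 CPM in the knockout and 127 to 129 CPM in the wild type.

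Markers of other tissues moved beside the 6 genes as well. Of 11 epithelial markers tested, 6 were higher in the knockout, 2 were lower and 3 did not pass (median 0.54), and with total-count scaling 4 were higher and 3 lower. Of the 11, 4 reached 1 CPM only in the knockout and none only in the wild type, so the count and median carry no support. CDH1, the epithelial cadherin, had 582 counts in the knockout and 1 in the wild type, a ratio of 141 (95% interval 25.2 to 5566). CDH3 (3.21) and CLDN7 (4.67) were higher, and the splicing factor ESRP1 (-2.48) was lower. Of 15 mesenchymal markers tested, 8 were higher, 4 were lower and 3 did not pass (median 0.23), and with total-count scaling 5 were higher and 7 lower. Of the 15, 3 reached 1 CPM only in the knockout and 1 only in the wild type, so nothing is read from that count or median. The share called was 72.7% for the epithelial list and 80% for the mesenchymal list, beside 74.4% of all genes tested. VIM, an intermediate filament protein, was at 1069 ± 24.4 CPM in the knockout and 129 ± 12.3 CPM in the wild type (3.05, adjusted p = 6.07e-38, edgeR). COL5A1 had 1 count in the knockout and 72 in the wild type, a ratio of 0.00336 (95% interval 8.38e-05 to 0.0193). The summed level was 469 to 477 CPM in the knockout and 459 to 465 CPM in the wild type for the 15 epithelial markers in the table, and 1662 to 1705 CPM in the knockout and 751 to 761 CPM in the wild type for the 20 mesenchymal ones. VIM carried that mesenchymal difference: without it the sum was 603 to 625 CPM in the knockout and 613 to 641 CPM in the wild type. The part of these markers in the values of the 6 genes was not tested.

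Genes beside the 6 on their chromosomes were listed because BCR and ABL1 are joined by a translocation. Within 500 kb lay 56 tested genes, with a median of 0.02. Of these, 21 were higher in the knockout, 17 were lower and 18 did not pass, and with total-count scaling 15 were higher and 24 lower. Over all genes tested, 37.8% were higher and 36.6% were lower. Before BCR on chromosome 22, RAB36 had 51 counts in the knockout and none in the wild type, at least 4.11-fold higher, and GNAZ was lower at 2.18 ± 0.242 CPM in the knockout and 5.87 ± 0.276 CPM in the wild type (log2 fold change -1.42, adjusted p = 1.97e-06, edgeR). After BCR, ZNF70, VPREB3 and SMARCB1 were tested and did not pass. Before ABL1 on chromosome 9, 4 genes were tested. EXOSC2, 9.05 kb away, was higher (0.33), and FUBP3 (-0.13), NCS1 (-0.64) and ASS1 (-2.53) were lower. ASS1, an enzyme of arginine synthesis 213 kb away, was at 86.3 ± 2.54 CPM in the knockout and 497 ± 6.18 CPM in the wild type (adjusted p = 1.19e-36, edgeR). After ABL1, LAMC3 was higher (0.67) and the other 3 did not pass. No tested neighbour of ABL1 had a log2 fold change as large as the 2.06 of ABL1 in the same direction. ABL1 too was chosen with its value known, at percentile 95.8 of all genes tested, so nothing is read from this.

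Around CORO1A, 29 genes were tested, of which 14 were higher in the knockout, 7 were lower and 8 did not pass, with a median of 0.31. The 13 after it had a median of 0.69, with 8 higher and 1 lower, and the 16 before it had a median of 0.00, with 6 higher and 6 lower. These sides were not tested against each other. ITGAL, the leukocyte integrin above, lies 284 kb after CORO1A. Between them, CD2BP2 (1.20), TBC1D10B (0.69), DCTPP1 (1.75) and SEPHS2 (1.81) were higher and SEPT1 (-1.13) was lower. Around GATA2, 1 of 7 tested genes was higher (RUVBL1, 0.65) and 5 were lower, among them SEC61A1 (-1.08), opposite in sign to GATA2. Next to TAL1, STIL was higher at 50.8 ± 0.728 CPM in the knockout and 29.9 ± 0.887 CPM in the wild type (0.76), opposite in sign to TAL1. CMPK1, 102 kb from TAL1, was lower like it, at 49.9 ± 3.97 CPM in the knockout and 64.4 ± 4.15 CPM in the wild type (-0.37, adjusted p = 5.74e-05, edgeR). CYP4X1 had 38 counts in the knockout and none in the wild type, at least 3.06-fold higher, and the other 2 tested, EFCAB14 and FOXD2, did not pass. Beside KIT, PDGFRA, a related receptor kinase, was at 43.6 ± 1.66 CPM in the knockout and 37.2 ± 0.549 CPM in the wild type (0.23, adjusted p = 0.0136, edgeR), opposite in sign to KIT, and KDR did not pass (-0.21). No test compared neighbours with other genes.

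**Figure D5:**
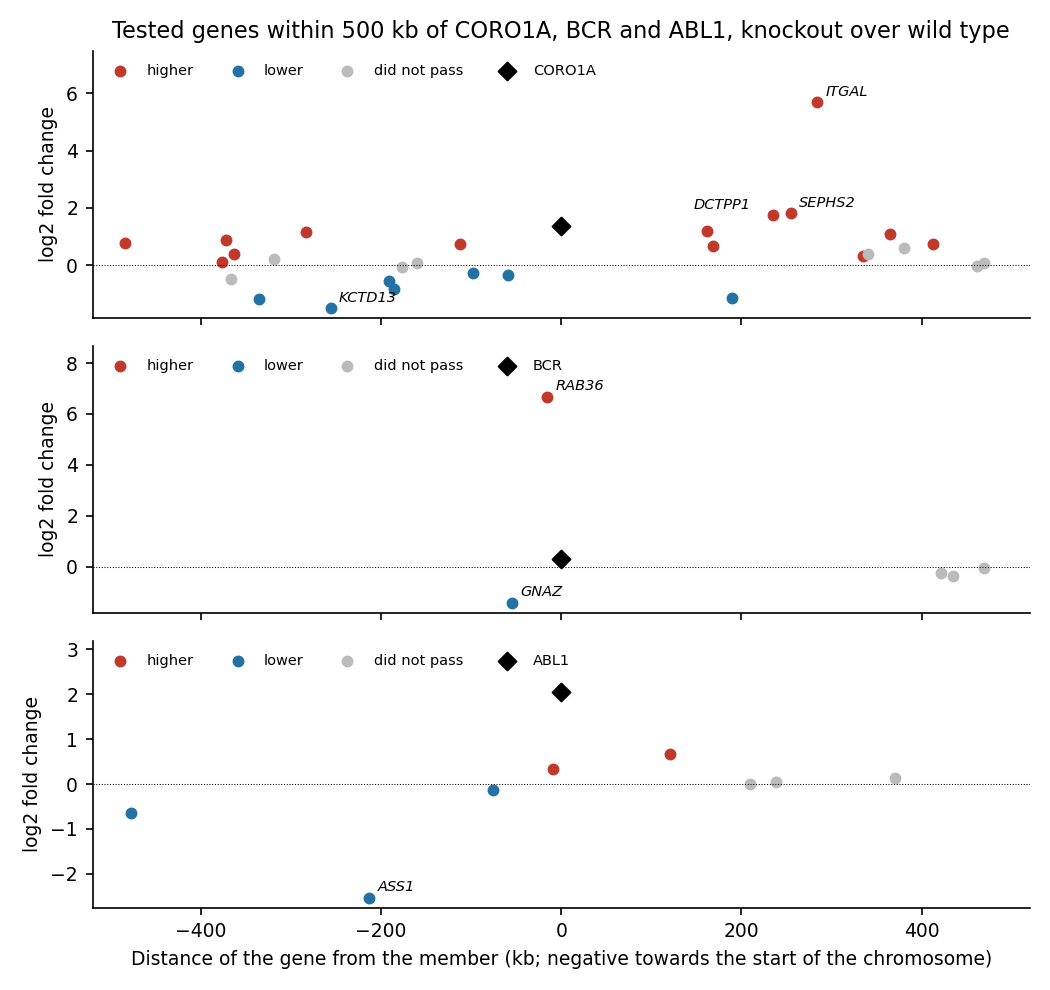
Log2 fold change of METTL18 knockout over wild type for tested genes within 500 kb of CORO1A, BCR and ABL1, by distance in kb (negative towards the start of the chromosome), with the named gene as a diamond at 0. After CORO1A more points lie above 0 (8 higher, 1 lower), around BCR and ABL1 they lie on both sides; RAB36, with no wild-type count, is drawn at its fitted value.

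Genes with the profile most like each of the 6 were found over the 5 libraries as the smallest distance between centred log2 CPM. For GATA2 they were GINS2 and MYADM (distances 0.0970 and 0.115), for CORO1A ZNF627 and TONSL (0.0352 and 0.0632), and for ABL1 EIF5AL1 and ZNF485 (0.242 and 0.271). For TAL1 they were ELMOD1 and MAML2 (0.264 and 0.338), for KIT C1orf123 and BVES (0.0556 and 0.0811), and for BCR the nearest was EMC6 (0.0402). None of the 6 was the nearest to another. The distances are larger for TAL1 and ABL1, the members with the fewest counts, and all rest on the 5 libraries and the same scaling.

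With total-count scaling the median gene lay at -0.255 in place of 0.0161, and the 6 genes moved with it: GATA2 1.60, CORO1A 1.09, ABL1 1.79, BCR 0.01, KIT -0.77 and TAL1 -2.40. Relative to that median they stood at 1.85, 1.35, 2.04, 0.27, -0.52 and -2.15 in the same order, close to the TMM values. That closeness was fixed in advance, since a change of scaling shifts all genes by nearly the same amount. It is no check of TMM. No member changed sign.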

How the data were processed

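Ribosome footprints of 28 to 32 bases were measured, per the labels' protocols, although polyA RNA is the molecule named in the labels. The authors deposited raw counts, whole numbers for 14084 transcript rows, 387 of them with no count. Bowtie and the build hg38 were used, per the submitters' processing notes, with no version named. The sources used here do not give the counting rule, the treatment of reads that match several places, the part of the transcript counted or any use of the random adapter bases to remove duplicates. Intervals therefore cover counting error only. Depth was 4887380 to 17629199 counts.

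Libraries were grouped by their labelled genotype. The quasi-likelihood test of edgeR 4.0.16 was run on the counts in R 4.3.3 (robust fit, group as the sole term, TMM factors of 0.927, 0.923 and 0.932 in the knockout and 1.12 and 1.12 in the wild type, filterByExpr with a minimum count of 10 and total of 15), with Benjamini-Hochberg adjustment over all 11335 rows and a threshold of 0.05. CPM and CPM per coding kilobase were computed here. Where a symbol had several rows, as 39 did, that with the most counts was kept. GENCODE 29 gave coordinates and coding length for 13968 rows (99.2%), and RefSeq promoters matched all 6 genes.

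The 6 genes, the 9 gene lists and the rule for naming genes were chosen with earlier results of these data known. That rule named, per list, the 3 called genes with the smallest adjusted p in each direction, the 3 with the highest mean CPM and any gene at 0 counts in 1 group with at least 1 CPM in the other, the called neighbours of BCR and ABL1, and the 2 genes most like each of the 6. Some genes it named are not reported here, and others named for their role were chosen after their values were seen. A group with no count was set to a floor of 3 counts, 0.0636 CPM in the knockout and 0.263 CPM in the wild type. The fit was tested on simulated counts. Alternatives were RLE, upper-quartile and total-count scaling, DESeq2 1.42.0, limma voom 3.58.1, other filters, thinning of the knockout libraries, a replicate block and each library left out. Leaving GATA2 and TAL1 out of the endothelial list, and the gene of the highest mean out of each list's sum, was chosen after seeing the data.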

Additional observations from a re-analysis of the deposited data

How the results depend on the processing

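Of 404 values recomputed under the alternatives, 375 kept their direction and their side of the threshold or stayed near the first value. No fold change of the 6 genes reversed. Counts were scored only for staying near the first value, not for direction. With total-count scaling the split between higher and lower turned for BCR-ABL1 effectors, coronin and Arp2/3 genes, mesenchymal markers, neighbours and all genes tested. Log2 fold changes with 1 library left out ran from 1.80 to 1.93 for GATA2, 1.24 to 1.47 for CORO1A, 1.65 to 2.69 for ABL1, 0.18 to 0.37 for BCR, -2.40 to -1.78 for TAL1 and -0.61 to -0.40 for KIT, the call of which was lost at -0.40, without wild-type replicate 2. Counts with 1 library left out ran from 9 to 14 for lower blood factors, 1 to 3 for lower coronin and Arp2/3 genes and 5 to 9 for higher mesenchymal markers, against 14, 3 and 8; the cause was not tested. With total-count scaling, which lowers all fold changes, 6 blood receptors were higher, 9 BCR-ABL1 effectors were higher and 26 lower, 6 coronin and Arp2/3 genes were lower, and 5 mesenchymal markers were higher and 7 lower. With a mean of at least 10 CPM fewer genes were tested: 4 blood factors were higher and 5 lower, 4 receptors higher, 2 leukocyte genes higher and 2 lower, 1 endothelial gene higher and 2 lower, 2 epithelial genes higher and 3 mesenchymal genes higher, and of the 6 genes only GATA2 (1.81) and CORO1A were tested, both higher. With the knockout thinned to wild-type depth, 5 leukocyte genes were lower and 5 mesenchymal genes higher, and TAL1 was at -2.73. Within 1 Mb, 43 neighbours were higher and 35 lower of 110. Without division by length the knockout order put BCR at 3, KIT at 4, ABL1 at 5 and TAL1 at 6, and the wild-type order put KIT at 3 and TAL1 at 4. Deviations from the group mean were barely correlated between knockout and wild-type libraries, whatever their replicate number (-0.0231 to 0.0231). With 2 wild-type libraries these deviations mirror each other. That pair differed by little more than counting noise (chi-square per degree of freedom 1.14), so the correlations cannot decide whether replicate numbers pair the libraries. With the replicate number as a block, 8476 genes were called, against 8431 without the block, and the 6 genes kept their calls, at 1.81 for GATA2, 1.37 for CORO1A, 2.11 for ABL1, 0.27 for BCR, -0.44 for KIT and -2.06 for TAL1. The 13 wild-type counts of ABL1 limit its precision.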
